A study of Mus musculus with 9 samples.

Results

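The report concerns the change from the fetal to the neonatal liver in stromal cells that express the chemokine gene Cxcl12. It compares 3 arrays of postnatal day 5 (P5) with 3 arrays of the embryonic stage E15.5, 6 of the 9 arrays of the series, across 19938 genes. Both groups were C57BL/6 mice carrying 1 Cxcl12 allele that expresses the red fluorescent protein DsRed, written Cxcl12DsRed/+. Cells of the liver were sorted as DsRed+ and negative for CD45 and Ter119, the surface marks of white and red blood cells. The labels name no other allele or treatment for any group. The 3 arrays of P10 entered the estimate of spread and the choice of probe set for each gene. Expression was read on Affymetrix gene arrays as log2 signal, so a difference of 1 is a 2-fold difference. The labels call the arrays independent replicates without saying whether each came from its own animal or pool, and the p-values therefore measure the spread between these arrays, which may be technical. Genes were taken from probe sets with exactly 1 gene symbol, with 1 probe set for each gene.

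Between these stages the mouse liver changes from an organ that makes blood cells into one that handles nutrients, bile and plasma proteins. Its Cxcl12-expressing stroma is known to include hepatic stellate cells and other mesenchymal cells that lie beside blood stem cells. Cells sorted by a reporter can also carry RNA of neighbouring cell types, so the defining genes of these types were read beside each result. Cxcl12 itself had signals of 10.95, 10.68 and 11.31 at E15.5 and 10.31, 9.95 and 10.24 at P5, and Ptprc, which encodes CD45, had 4.97, 5.08 and 5.11 at E15.5 and 5.08, 5.07 and 5.18 at P5. Lrat, which encodes the enzyme that stores vitamin A in stellate cells, had 10.59, 10.46 and 10.99 at E15.5 and 8.50, 7.93 and 8.29 at P5. The mean signal of 19 stellate genes was 10 to 10.19 on the E15.5 arrays and 8.21 to 8.54 on the P5 arrays, with a median difference of -2.17. The mean of 20 hepatocyte genes was 10.48 to 10.64 and then 12.22 to 12.31, but their median difference was only 0.4. Their median signal at E15.5 was already 11.94. Albumin, encoded by Alb, was near 13 at both stages (13.10, 13.15 and 13.18 at E15.5 and 13.20, 13.20 and 13.21 at P5). The means of 15 macrophage genes (5.57 to 5.68 and 5.59 to 5.62) and 10 lymphocyte genes (5.34 to 5.38 and 5.22 to 5.54) were low at both stages. Those of 10 erythroid genes were 6.46 to 7.12 and 6.5 to 6.72, and those of 6 megakaryocyte genes 7.25 to 7.79 and 6.13 to 6.28. The 12 mesothelial genes had 7.89 to 7.91 and 8.77 to 9.22, the 7 cholangiocyte genes 6.57 to 6.78 and 7.15 to 7.3, and the 10 neutrophil genes 5.52 to 6.28 and 5.8 to 5.89. The 16 endothelial genes had 7.06 to 7.23 and 6.67 to 8.08, with 2 called higher, but 11 without P5 array 1. The part of these shifts in the results below was not tested. Fewer cells of a type and less RNA per cell cannot be told apart.

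A gene was called when the moderated test of limma, with Benjamini-Hochberg adjustment across the whole table, gave a p under 0.05. Of the 19938 genes, 3560 (17.9%) were called higher at P5 and 3529 (17.7%) lower, 35.6% in all. The division was thus nearly even, with 50.2% of calls higher, but quantile normalisation of the deposited values raised this share to 64.1%, with 6132 higher and 3435 lower. The sizes were less even. At least 2-fold differences were called for 1435 genes higher (7.2%) and 1356 lower (6.8%). Past 8-fold there were 193 higher and 43 lower, past 16-fold 80 and 8, past 32-fold 37 and 1, and past 64-fold 12 and 0. The arrays of both stages did not overlap for 9009 genes (45.2%). Among the 12849 genes not called, the 95% confidence interval lay within 2-fold either way for 96.4%. The median difference of all genes was 0.03.

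**Figure D1:**
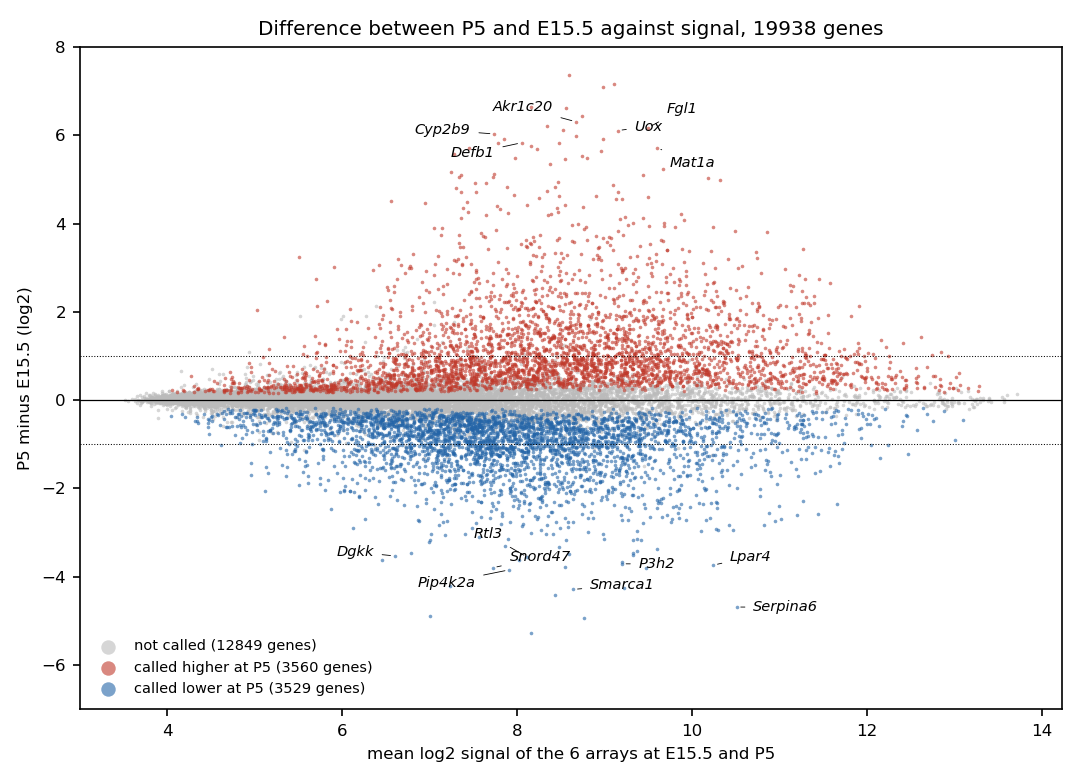
Each point is 1 of 19938 genes, with the mean log2 signal of the 6 arrays at E15.5 and P5 on the horizontal axis and the log2 difference P5 minus E15.5 on the vertical axis. Red marks 3560 genes called higher, blue 3529 called lower, grey 12849 not called, and the dotted lines mark 2-fold; the largest rises reach further from 0 than the largest decreases.

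Calls were rare at low signal. Among the 4985 genes of lowest mean signal 2.71% were called higher and 3.25% lower, and among the 4985 of highest signal 37.1% and 26.6%. Olfactory receptors, genes of the nasal epithelium with a median signal of 4.52 here, gave 16 calls higher and 5 lower among 1027 (157 and 2 under quantile normalisation), with no called difference above 0.49. Leaving out 1 array moved the 16 to between 5 (without E15.5 array 1) and 29 (without P5 array 3), and the 5 to 3 without P5 array 3. The P5 arrays varied more than the E15.5 arrays. On each P5 array 184 to 217 genes lay more than 2-fold from the mean of the other 2 P5 arrays, against 26 to 42 genes on each E15.5 array. Of the 997 genes in the top 5% of signal at E15.5, 363 were called lower and 280 higher. Of the same number at P5, 622 were called higher and 95 lower, and 652 genes were in both sets.

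The largest rises outside a list of genes set aside as known markers ran from 5.68 to 6.31 in the 12 genes described here. Akr1c20, an aldo-keto reductase, had signals of 5.61, 5.45 and 5.48 at E15.5 and 11.73, 11.94 and 11.80 at P5, and the difference was 6.31 ± 0.08 (SE, n = 3 per stage), or 79.2-fold (limma adjusted p = 1.41e-09). Its relatives Akr1c18 (6.13 ± 0.14) and Akr1c14 (5.81 ± 0.15) rose with it. Uox, which encodes the urate oxidase that breaks down uric acid in mice, had 5.95, 5.51 and 6.83 at E15.5 and 12.28, 12.12 and 12.21 at P5 and rose by 6.11 ± 0.28. Fgl1, a secreted fibrinogen-like protein of the liver, had 6.32, 5.66 and 7.24 at E15.5 and 12.57, 12.51 and 12.65 at P5 and rose by 6.17 ± 0.33. The fetal arrays of Uox and Fgl1 were themselves more than 2-fold apart, while the P5 arrays lay close together.

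Further rises concerned cytochromes, carboxylesterases and amino acid enzymes. Cyp2b9, a cytochrome P450, went from 4.72, 4.58 and 4.85 to 10.72, 10.68 and 10.84 (6.03 ± 0.08, limma adjusted p = 1.58e-09). Agxt, the peroxisomal enzyme that removes glyoxylate, went from 5.28, 5.83 and 5.58 to 11.42, 11.33 and 11.42 (5.82 ± 0.12). Mat1a, the liver form of methionine adenosyltransferase, went from 6.36, 6.26 and 7.60 to 12.46, 12.46 and 12.46 (5.72 ± 0.31). In each of these the lowest P5 array was far above the highest E15.5 array. Defb1, an antimicrobial peptide of epithelia, rose by 5.83 ± 0.07, and the carboxylesterase Ces1c by 5.75 ± 0.28. The steroid dehydrogenases Hsd17b6 and Hsd3b3 rose by 5.70 ± 0.16 and 5.68 ± 0.19. These genes rose beside the hepatocyte list, of which 14 of 20 members were called higher and 1 lower.

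Decreases past 8-fold were fewer. Outside the genes set aside as known markers, Serpina6 led them. Among those set aside, Sema3a (-5.27 ± 0.11), Nrk (-4.93 ± 0.12) and Arxes1 (-4.89 ± 0.23) fell further. Serpina6, which encodes corticosteroid-binding globulin of the plasma, had 12.88, 12.82 and 12.86 at E15.5 and 8.99, 6.38 and 9.12 at P5 and fell by 4.69 ± 0.64 (limma adjusted p = 0.00054). It was thus among the strongest signals at E15.5, and at P5 the second array was lower than the other two by more than 4-fold. Nr1h5, a nuclear receptor related to the bile acid receptor, had 11.24, 11.22 and 11.66 at E15.5 and 8.43, 6.74 and 7.56 at P5 (-3.79 ± 0.37). Its second P5 array was the lowest as well, and the stages of both genes did not overlap.

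Other decreases concerned a chromatin gene, lipid signalling and the cell surface. Smarca1, the ATPase of an ISWI chromatin remodeller, had 10.92, 10.63 and 10.81 at E15.5 and 6.79, 6.30 and 6.40 at P5 and fell by 4.29 ± 0.22 (limma adjusted p = 2.11e-06). Pip4k2a, a phosphoinositide kinase, had 9.89, 9.61 and 9.99 at E15.5 and 5.78, 6.29 and 5.88 at P5 (-3.85 ± 0.20). Lpar4, a receptor for lysophosphatidic acid, had 12.24, 12.05 and 12.05 at E15.5 and 8.48, 8.40 and 8.24 at P5 (-3.74 ± 0.10). The stages of all 3 genes were more than 8-fold apart in the fit and did not overlap. P3h2, a prolyl hydroxylase of collagens, fell by 3.71 ± 0.45, as did the adhesion receptor Adgrl3 (-3.62 ± 0.12). Arxes2, an adipocyte gene (-3.67 ± 0.11), the retrotransposon-derived Rtl3 (-3.56 ± 0.28) and Dgkk, a diacylglycerol kinase (-3.53 ± 0.11), fell too. Beside them the stellate list had 19 of 19 members called lower, against 17.7% of all genes.

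**Figure D2:**
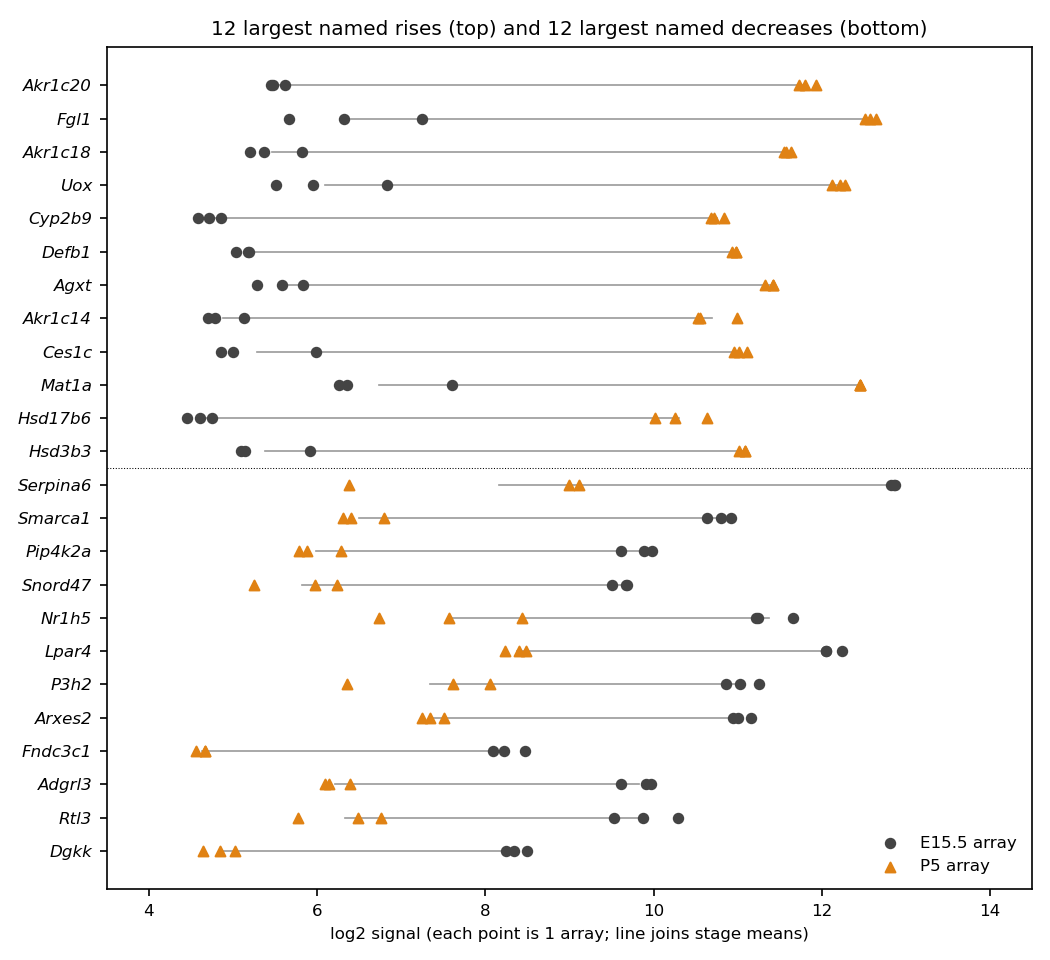
Log2 signal on each array (horizontal axis) for the 12 largest named rises and the 12 largest named decreases, with E15.5 arrays as dark circles, P5 arrays as orange triangles and a line between the stage means. The stages do not overlap for any of these genes, and the P5 arrays of Serpina6 lie between 6.38 and 9.12.

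Some genes crossed from the lower to the upper part of the signal range. By a rule of under percentile 30 at one stage and over percentile 70 at the other, 62 genes were switched on and 14 switched off. Akr1c20, Akr1c18, Cyp2b9, Defb1, Agxt and Akr1c14 led the first group. In the second, Fndc3c1, a fibronectin type III gene, had 8.22, 8.47 and 8.09 at E15.5 and 4.67, 4.56 and 4.67 at P5 (-3.63 ± 0.11). Dgkk had 8.35, 8.50 and 8.24 at E15.5 and 5.02, 4.84 and 4.64 at P5, and both genes ended low in the range of signals, at percentiles 10.4 and 13.7. In the same group, Neto1, a receptor accessory protein (-3.18 ± 0.16), Aff2, a transcription elongation factor (-3.06 ± 0.11), Dock11, a guanine nucleotide exchange factor (-3.03 ± 0.13), and the small nucleolar RNA gene Snord87 (-3.47 ± 0.36) fell as well.

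The promoters of strongly risen genes differed in base composition from those of other genes. RefSeq windows of 300 bases, 250 before and 50 after the first base of a gene, were at hand for 15563 of the measured genes (mouse build GRCm38.p6). The dinucleotide CG is depleted in most mouse DNA and kept in the CpG islands of widely used genes, and its ratio of observed to expected occurrence measures this. The median ratio was 0.284 in the 157 genes at least 8-fold higher at P5 with a window, and 18.5% of them reached 0.6. It was 0.638 in 1175 genes at least 2-fold higher, 0.738 in 1035 genes at least 2-fold lower and 0.504 in 33 genes at least 8-fold lower. In all 15563 measured genes with a window it was 0.627, with 52.5% reaching 0.6, near the value of the genes at least 2-fold higher. In the 8049 genes above the median signal it was 0.778, with 74.3% reaching 0.6. The upstream 250 bases of 4 risen and 4 fallen genes are shown to let the range be seen, with CG in capitals.

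Agxt: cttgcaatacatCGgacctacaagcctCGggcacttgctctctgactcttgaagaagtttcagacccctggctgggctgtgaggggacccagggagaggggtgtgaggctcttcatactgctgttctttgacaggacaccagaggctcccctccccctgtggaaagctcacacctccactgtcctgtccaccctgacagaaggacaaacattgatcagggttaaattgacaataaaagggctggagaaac
Cyp2b9: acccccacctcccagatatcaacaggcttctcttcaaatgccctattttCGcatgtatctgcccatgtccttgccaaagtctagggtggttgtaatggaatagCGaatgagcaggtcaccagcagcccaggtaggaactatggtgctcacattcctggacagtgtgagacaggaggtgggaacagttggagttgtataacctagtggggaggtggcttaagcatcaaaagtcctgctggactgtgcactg
Uox: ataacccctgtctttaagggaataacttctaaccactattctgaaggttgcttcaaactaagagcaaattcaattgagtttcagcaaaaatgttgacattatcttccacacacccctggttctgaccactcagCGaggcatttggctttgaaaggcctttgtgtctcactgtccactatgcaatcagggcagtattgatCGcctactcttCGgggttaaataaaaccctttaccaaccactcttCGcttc
Ces1c: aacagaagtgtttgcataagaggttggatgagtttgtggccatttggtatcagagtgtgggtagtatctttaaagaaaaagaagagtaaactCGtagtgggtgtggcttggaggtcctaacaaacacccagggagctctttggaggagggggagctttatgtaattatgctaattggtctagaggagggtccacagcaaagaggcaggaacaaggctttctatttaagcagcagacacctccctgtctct
Pip4k2a: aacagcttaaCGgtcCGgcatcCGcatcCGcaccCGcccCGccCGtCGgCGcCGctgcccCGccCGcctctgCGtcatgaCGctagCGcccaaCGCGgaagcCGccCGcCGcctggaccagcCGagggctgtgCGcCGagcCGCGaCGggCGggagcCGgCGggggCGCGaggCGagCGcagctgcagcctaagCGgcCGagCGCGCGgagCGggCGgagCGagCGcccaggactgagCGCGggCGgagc
Adgrl3: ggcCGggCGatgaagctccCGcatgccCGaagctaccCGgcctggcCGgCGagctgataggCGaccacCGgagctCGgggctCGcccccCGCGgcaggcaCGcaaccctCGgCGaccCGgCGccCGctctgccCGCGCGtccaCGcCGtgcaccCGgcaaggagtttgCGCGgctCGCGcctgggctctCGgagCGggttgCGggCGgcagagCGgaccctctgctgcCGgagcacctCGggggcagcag
Smarca1: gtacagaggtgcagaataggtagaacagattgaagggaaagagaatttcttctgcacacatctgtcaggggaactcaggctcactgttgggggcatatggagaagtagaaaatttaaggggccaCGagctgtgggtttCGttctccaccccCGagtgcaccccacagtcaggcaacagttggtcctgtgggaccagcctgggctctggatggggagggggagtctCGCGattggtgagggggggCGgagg
Lpar4: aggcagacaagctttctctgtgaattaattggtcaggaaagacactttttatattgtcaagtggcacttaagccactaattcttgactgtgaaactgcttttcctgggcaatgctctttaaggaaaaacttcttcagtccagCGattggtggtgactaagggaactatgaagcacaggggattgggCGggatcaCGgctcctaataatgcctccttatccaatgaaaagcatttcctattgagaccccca

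In GRCm38.p6 these stretches are chr1:93134990-93135239, plus strand for Agxt, chr7:26173159-26173408, plus strand for Cyp2b9, chr3:146596899-146597148, plus strand for Uox and chr8:93131284-93131533, minus strand for Ces1c. They are chr2:18998122-18998371, minus strand for Pip4k2a, chr5:81020321-81020570, plus strand for Adgrl3, chrX:47892614-47892863, minus strand for Smarca1 and chrX:106920375-106920624, plus strand for Lpar4. All are read 5′ to 3′ along the gene and end at the base before the RefSeq start. The 4 risen genes held 2, 2, 4 and 1 CG in the order listed. Pip4k2a held 45 and Adgrl3 36, whereas Smarca1 held 6 and Lpar4 3. The fallen genes therefore spanned both kinds of promoter, and the risen ones shown were all poor in CG. Where a gene had several RefSeq starts (16.9% of those with a window), the most upstream one was used.

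**Figure D3:**
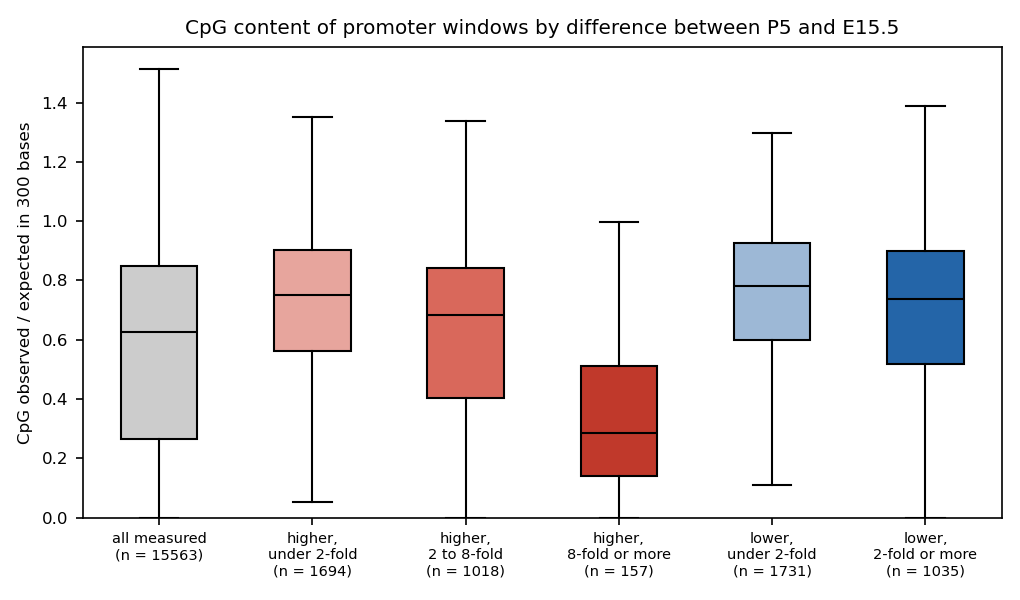
Boxes show the median and quartiles, and whiskers the range without outlying genes, of the ratio of observed to expected CG in 300-base promoter windows (vertical axis), by direction and size of the called difference, with the number of genes under each box. The median of 157 genes at least 8-fold higher at P5 is 0.284, below that of 1035 genes at least 2-fold lower, 0.738.

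Of 14 motifs searched on both strands of these windows, some are given for the genes at least 8-fold higher. The letters TATAAA, the core of the TATA box, stood on either strand of the window in 22.9% of the 157, against 12.1% of all measured genes. On the strand of the gene alone, they stood within the 50 bases before the start in 9 of 157 (5.73%). That share was 3.18% of all measured genes, 3.23% of genes at least 2-fold higher, 2.13% of genes at least 2-fold lower and 1.69% of genes above the median signal. Among genes at least 8-fold lower the share was 3.03%. The letters CAAAGTCCA, a core bound by the hepatocyte nuclear receptor HNF4, stood in the window of 7 of 157 (4.46%), against 0.45% of all measured genes and 0.0966% of genes at least 2-fold lower. Hnf4a, which encodes HNF4 alpha and was named after its values were seen, had 8.80, 8.52 and 7.95 at E15.5 and 10.67, 10.99 and 10.94 at P5 (2.45 ± 0.20). Whether HNF4 alpha has any part in the rises of the 157 genes was not tested. The 7 matches of CAAAGTCCA follow, with this core or its reverse complement in capitals, in GRCm38.p6.

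Hsd3b3: tcactgaaagTGGACTTTGaagcttccag
Cyp3a11: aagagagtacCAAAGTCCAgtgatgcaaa
Cyp3a16: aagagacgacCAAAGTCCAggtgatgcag
Aadat: cctctgtggaTGGACTTTGtcccttctgc
Cyp2c70: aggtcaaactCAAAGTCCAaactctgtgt
Agxt2: cttctaatatCAAAGTCCAgtccagtcag
Pipox: ctagtttagcTGGACTTTGcctccctcct

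They lie at chr3:98763106-98763134 for Hsd3b3 (minus strand), chr5:145879945-145879973 for Cyp3a11 (minus strand), chr5:145469804-145469832 for Cyp3a16 (minus strand), chr8:60506042-60506070 for Aadat (plus strand), chr19:40187332-40187360 for Cyp2c70 (minus strand), chr15:10358502-10358530 for Agxt2 (plus strand) and chr11:77893839-77893867 for Pipox (minus strand). Cyp3a11 and Cyp3a16 are close relatives in 1 gene family and their matches are not independent. The log2 differences of the 7 genes ran from 3.01 (Pipox, which oxidises pipecolic acid) to 5.68 (Hsd3b3). A match describes letters and is no evidence of binding.

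Peroxisomes, which shorten very long fatty acids and handle peroxide, ethers and glyoxylate, gained signal in most of their genes. Of 54 measured members 40 were called higher, 35 by at least 2-fold, and 4 lower, with a median difference of 1.64. Pecr, a reductase of fatty acid elongation, rose by 2.36 ± 0.05 (limma adjusted p = 2.4e-08), and Phyh, which starts the breakdown of phytanic acid, by 2.65 ± 0.06. Far1, which makes the alcohols of ether lipids, had 9.56, 9.42 and 10.01 at E15.5 and 7.31, 7.08 and 6.99 at P5 and fell by 2.54 ± 0.19. The stages did not overlap for Far1, which went against most of its list. The 4 decreases became 2 without the first or the third E15.5 array. The tricarboxylic acid cycle and its feeding enzymes had 27 of 31 members called higher and 0 lower. Pcx, the pyruvate carboxylase that also starts gluconeogenesis, rose by 3.26 ± 0.12, Pdk4, a brake on pyruvate oxidation, by 3.32 ± 0.17, and Suclg1, a subunit of succinyl-CoA ligase, by 1.72 ± 0.07.

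Mitochondrial upkeep changed with it. Mitochondrial ribosomal protein genes were called higher in 70 of 77 cases and lower in 0, whereas cytosolic ribosomal protein genes were called higher in 3 and lower in 3 of 61, and under quantile normalisation 2 and 7. Among the latter Rpl12 had 8.81, 8.79 and 8.84 at E15.5 and 6.93, 7.07 and 7.0 at P5 (-1.81 ± 0.07). The import channels of the mitochondrial membranes had 15 of 24 members higher and 1 lower, with Timm8a1 at 1.25 ± 0.06, Timm13 at 1.07 ± 0.08 and, against them, Tomm34 at -0.49 ± 0.06. Assembly factors of iron-sulfur clusters and other cofactors had 30 of 44 higher and 2 lower. Pank1, a pantothenate kinase of coenzyme A synthesis, rose by 3.0 ± 0.11, and Mocs1 and Mocs2, which build the molybdenum cofactor, by 2.92 ± 0.13 and 1.87 ± 0.08. The mitochondrial carriers of the SLC25 family had 20 of 46 higher and 6 lower. Slc25a13, an aspartate and glutamate exchanger, rose by 3.26 ± 0.12, and Slc25a36, a pyrimidine nucleotide carrier, fell by 2.02 ± 0.14.

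Detoxification and redox genes followed the same direction. Glutathione S-transferases, which couple glutathione to foreign compounds, had 17 of 21 members higher and 0 lower, with a median difference of 1.22. Gstp3 rose by 2.21 ± 0.09, Mgst1 by 2.14 ± 0.09 and Gstm7 by 2.05 ± 0.11. Genes of selenoproteins and selenium handling had 13 of 29 higher and 5 lower. Msrb1, which repairs oxidised methionine, rose by 3.10 ± 0.09, Sephs2, which makes the selenium donor, by 2.60 ± 0.08 and Scly, which recovers selenium, by 2.36 ± 0.10. The selenoproteins Selenon (-1.21 ± 0.08) and Selenom (-1.70 ± 0.18), both of the endoplasmic reticulum, fell. The 5 decreases became 3 without any 1 of E15.5 array 1 or 2, P5 array 1 or P10 array 1.

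Lipid transport and membrane lipid genes moved both ways. Sphingolipid and phospholipid synthesis had 29 of 76 members higher and 17 lower. Pemt, which makes phosphatidylcholine by methylation in hepatocytes, had 6.50, 7.61 and 7.49 at E15.5 and 11.94, 11.71 and 11.73 at P5 and rose by 4.59 ± 0.27. Agpat2 (1.52 ± 0.06) and Pcyt2 (2.21 ± 0.11), enzymes of phosphatidic acid and phosphatidylethanolamine synthesis, rose as well. The ceramide synthase gene Cers5 (-2.30 ± 0.11) and the acyltransferase gene Lpcat1 (-1.90 ± 0.11) fell. ABC transporters had 8 of 48 members higher and 7 lower, shares near those of all genes, but 19 higher and 5 lower under quantile normalisation. Abcg5 (2.83 ± 0.08) and Abcg8 (2.31 ± 0.10), which together export sterols, rose, and Abcc9, a subunit of potassium channels in mural cells, fell by 2.72 ± 0.14.

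Hormone and growth factor pathways showed opposite moves of related genes. Growth hormone and prolactin signalling had 10 of 16 members higher and 2 lower. Socs2, a growth hormone target that limits its signal, had 8.51, 8.29 and 8.13 at E15.5 and 11.25, 11.06 and 11.22 at P5 (2.87 ± 0.14), though a second probe set of the gene gave 1.36. Cish, of the same family, rose by 1.03 ± 0.10, and Socs3 fell by 0.47 ± 0.07 on the probe set used, a call lost on its other probe set. In the thyroid hormone list 9 of 17 rose and 1 fell. Its 2 receptors went opposite ways, Thrb from 6.10, 6.20 and 6.02 to 8.07, 7.89 and 8.38 (2.01 ± 0.12) and Thra from 9.69, 9.36 and 9.60 to 8.22, 8.36 and 8.41 (-1.22 ± 0.17, limma adjusted p = 0.000557). Serpina7, which encodes thyroxine-binding globulin, rose by 3.63 ± 0.28.

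Glucocorticoid genes had a similar split. Of 15 measured members of the response list 7 rose and 1 fell. Hsd11b1, which regenerates active glucocorticoid, had 5.79, 5.41 and 6.14 at E15.5 and 9.65, 9.14 and 9.64 at P5 (3.70 ± 0.21), and Hsd11b2, which inactivates it, had 7.51, 7.48 and 7.74 at E15.5 and 6.64, 6.63 and 6.44 at P5 (-1.01 ± 0.10). The stages of both genes were apart, in opposite directions. The targets Errfi1 and Klf15 rose by 2.13 ± 0.08 and 1.74 ± 0.09. Of the 7 genes of insulin-like growth factor binding proteins 5 rose and 1 fell. Igfbp2 went from 6.88, 6.98 and 7.29 to 12.35, 12.13 and 12.38 (5.24 ± 0.13) and Igfbp3 from 12.26, 11.96 and 12.25 to 10.06, 9.16 and 9.57 (-2.56 ± 0.25). Igfbp3 kept a high signal at P5 all the same.

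Protein breakdown differed by compartment. The proteasome, which degrades tagged proteins in the cytosol and nucleus, had 33 of 50 members higher and 1 lower, Psmg2 (-0.63 ± 0.12). Most rises were small, with a median difference of 0.42 and 7 rises of at least 2-fold. Psmb8, an interferon-inducible catalytic subunit, was one of the 7, with 6.29, 6.26 and 6.45 at E15.5 and 10.29, 11.69 and 10.30 at P5 (4.43 ± 0.33, limma adjusted p = 1.64e-05). Its second P5 array was the highest. Autophagy genes had 16 of 39 higher and 3 lower, with a mean of 8.23 to 8.35 on the E15.5 arrays. The share higher was 41.0%, against 17.9% of all genes and 37.1% of the 4985 genes of highest signal. The rises included Pink1, a kinase of damaged mitochondria (2.08 ± 0.12), Atg5 (1.45 ± 0.10) and Gabarapl2 (1.29 ± 0.09). Lysosomal genes went the other way, with 25 of 54 lower and 9 higher. The protease gene Ctsc fell by 2.74 ± 0.17, and so did Galc (-1.50 ± 0.11) and Gusb (-1.28 ± 0.10), hydrolases of galactolipids and glucuronides. Ctsh (1.52 ± 0.21) and Gm2a (1.53 ± 0.21) rose.

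The folding machinery of the endoplasmic reticulum, which serves secreted and membrane proteins, had lower signal at P5 in most genes. Of 55 members 39 were called lower, 24 by at least 2-fold, and 3 higher (1 without E15.5 array 3), with a median difference of -0.85. Pdia6, a disulfide isomerase, had 11.45, 11.39 and 11.34 at E15.5 and 9.61, 9.41 and 9.36 at P5 and fell by 1.93 ± 0.09 (limma adjusted p = 1.35e-06). The prolyl isomerases Fkbp9 (-2.33 ± 0.10) and Fkbp14 (-2.45 ± 0.14), which act on collagen and related proteins, fell further. Hspa5, the main chaperone of this compartment, had 11.98, 11.99 and 11.96 at E15.5 and 10.27, 10.27 and 10.68 at P5 (-1.57 ± 0.16), and was named after its values were seen. All 3 P5 arrays were below all E15.5 arrays for Pdia6 and Hspa5. Genes that rose included the stress factor Atf4 (0.47 ± 0.10). Vesicle coats and Golgi traffic had 18 of 48 lower (37.5%) and 8 higher (16.7%, against 17.9% of all genes). These genes were bright, with a mean of 9.48 to 9.55 on the E15.5 arrays. Among the 4985 genes of highest signal 37.1% were called higher and 26.6% lower. The cargo receptor genes Tmed3 (-1.42 ± 0.10) and Lman1 (-1.22 ± 0.10) were lower and Sec24a (1.02 ± 0.09) higher.

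Genes that build glycosaminoglycans, the sulfated sugar chains of the matrix and cell surface, were called lower in 29 of 54 cases and higher in 2 (26 and 6 under quantile normalisation). Ust (-2.23 ± 0.09) and Dse (-2.32 ± 0.12), which shape chondroitin and dermatan sulfate, and Hs6st2 (-2.82 ± 0.15), a heparan sulfotransferase, fell. Papss2, which makes the sulfate donor, rose by 1.03 ± 0.10. The primary cilium, the antenna of hedgehog signalling on mesenchymal cells, had 28 of 56 genes lower and 4 higher. Ttc21b (-1.43 ± 0.13) and Dync2h1 (-0.99 ± 0.12) of retrograde transport and Tmem67 (-1.26 ± 0.13) of the transition zone fell, while Ift52 (1.04 ± 0.15) and Ift20 (0.57 ± 0.05) of forward transport rose. Septins, filament proteins of the cell cortex, had 8 of 12 lower and 0 higher (8 and 2 under quantile normalisation), with Septin4 at -1.74 ± 0.20 and Septin8 at -1.27 ± 0.13. These 3 lists had more decreases than rises beside the stellate genes, whose part was not tested.

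**Figure D4:**
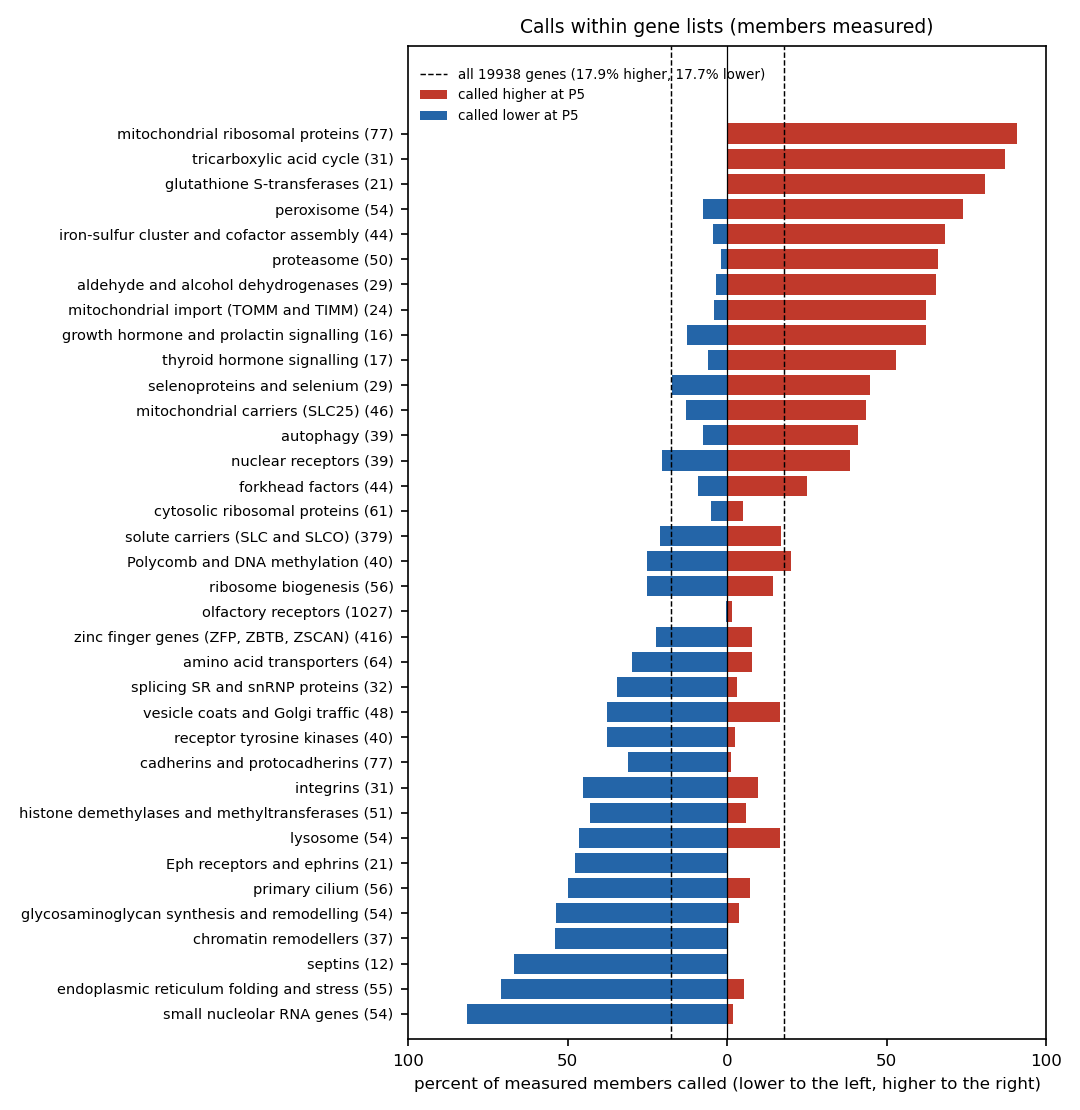
Percent of the measured members of 36 gene lists called higher (red, to the right) or lower (blue, to the left) at P5, with the number of members in brackets and dashed lines at the shares of all 19938 genes, 17.9% higher and 17.7% lower. Mitochondrial ribosomal proteins (70 of 77 higher) stand at the top and small nucleolar RNA genes (44 of 54 lower) at the bottom.

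Several families of cell surface genes had more members called lower than higher, with most members of each not called except among integrins. Receptor tyrosine kinases had 15 of 40 members lower and 1 higher, and 15 lower and 10 higher under quantile normalisation. Igf1r, the receptor of insulin-like growth factor (-2.46 ± 0.12), Erbb2 (-1.70 ± 0.10) and Axl, a receptor for Gas6 (-2.02 ± 0.15), fell. The single rise, Csf1r, was 0.19 ± 0.06 and was lost on leaving out 1 array in 5 cases (0.16 to 0.19), while 4 kinases were higher without P5 array 1. Eph receptors and ephrins, which sort cells by contact, had 10 of 21 lower and 0 higher (9 and 2 under quantile normalisation), with Epha7 at -3.16 ± 0.20 and Epha4 at -1.59 ± 0.15. Cadherins and protocadherins had 24 of 77 lower and 1 higher, with Cdh11 (-2.72 ± 0.09), Cdh2 (-2.43 ± 0.12) and Fat4 (-2.10 ± 0.12) lower. Under quantile normalisation 20 cadherins were lower and 8 higher. Integrins had 14 of 31 lower and 3 higher (1 without E15.5 array 1 or 3), with Itga8 (-2.20 ± 0.09), Itgav (-1.85 ± 0.12) and Itgb1 (-1.70 ± 0.12) lower. Claudins, of tight junctions, went the other way with 8 of 28 higher and 1 lower (14 and 1 under quantile normalisation, and 3 lower without E15.5 array 3). Connexins had 3 of 16 higher and 2 lower (8 and 2 under quantile normalisation, and 6 higher without P5 array 3). Their share higher was near that of all genes, and their share lower was below that of all genes. Among them Gjc1 of mesenchymal and vascular cells was at -3.0 ± 0.14. Gjb2 and Gjb1, gap junction genes of hepatocytes, were at 2.22 ± 0.13 and 1.44 ± 0.24.

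In the next lists the balance of calls changed with the scaling. Orphan and adhesion G protein-coupled receptors had 18 of 105 lower, a share near the 17.7% of all genes, and 2 higher, but 15 lower and 23 higher under quantile normalisation. The 2 became 4 without P5 array 1, 6 without P5 array 3 and 1 without any 1 of E15.5 array 1 or 3, P5 array 2 or P10 array 3. With either scaling Adgrl3, Adgrg6 (-3.11 ± 0.15) and Adgrl1 (-1.94 ± 0.10) were called lower. Amino acid transporters had 19 of 64 lower and 5 higher, but 17 of each under quantile normalisation. Slc38a1 (-2.36 ± 0.12) and Slc38a2 (-1.49 ± 0.14), glutamine carriers of growing cells, and Slc7a5, a leucine carrier (-1.15 ± 0.07), fell, and Slc38a3, the glutamine carrier of hepatocytes, rose by 2.43 ± 0.21. The 5 rises became 3 without E15.5 array 1 or 3.

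Transcription factor families held factors that rose and factors that fell, as did all genes, of which 17.9% were higher and 17.7% lower. Among nuclear receptors 15 of 39 rose (38.5%) and 8 fell (20.5%), and 24 and 8 under quantile normalisation. Nr0b2, a repressor in bile acid feedback, rose by 4.40 ± 0.12 (limma adjusted p = 7.99e-08), and Nr2f2 (-1.69 ± 0.11), a mesenchymal and venous factor, and Rarb (-1.85 ± 0.17), a retinoic acid receptor, fell. Forkhead factors had 11 of 44 higher and 4 lower (23 and 5 under quantile normalisation), with Foxa2 (1.42 ± 0.09), Foxa3 (2.49 ± 0.15) and Foxq1 (2.63 ± 0.15) higher and Foxc2 (-1.10 ± 0.13) lower. Homeobox genes outside the HOX clusters had 22 of 107 higher and 15 lower, shares near those of all genes, but 61 higher and 15 lower under quantile normalisation. Onecut1 (2.66 ± 0.20), Onecut2 (2.05 ± 0.12) and Hhex (2.42 ± 0.13), factors of hepatic lineages, rose, and Zeb2, a factor of mesenchymal identity, fell by 2.33 ± 0.18. The 22 rises became 11 without the second P5 array, 12 without the first and 14 without the third E15.5 array.

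GATA factors and their partners had 6 of 9 lower and 1 higher (4 and 2 under quantile normalisation), with Gata6 (-1.51 ± 0.08), Gata5 (-1.35 ± 0.14) and the cofactor gene Zfpm2 (-1.91 ± 0.09) lower and Zfpm1 (0.60 ± 0.14) higher. T-box factors showed 1 of each among 14, Tbx3 at 1.66 ± 0.10 and Tbx20 at -2.38 ± 0.10. Each share was 7.14%, below those of all genes. Under quantile normalisation 9 T-box factors were higher and 1 lower. Factors with a basic leucine zipper had 17 of 52 higher (32.7%) and 10 lower (19.2%, near the 17.7% of all genes). Cebpa (2.15 ± 0.07), Hlf (2.25 ± 0.09) and Atf5 (2.12 ± 0.12) were higher. Creb3l1, a factor of collagen-secreting cells, was lower (-1.47 ± 0.12). Zinc finger genes, the largest family of factors, had 93 of 416 lower and 33 higher (83 and 64 under quantile normalisation). The shares were 22.4% lower, not far from the 17.7% of all genes, and 7.93% higher, against 17.9%. Zfp462 (-1.59 ± 0.07) fell and Zfp750, a factor of epithelia, rose by 3.08 ± 0.13.

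Among chromatin genes the counts differed by list. Of 37 genes of ATP-dependent remodellers 20 were called lower and 0 higher (22 and 3 under quantile normalisation), with a median difference of -0.52. Chd6 (-1.72 ± 0.15) and Smarcd3 (-1.10 ± 0.08) fell with Smarca1. Histone methyltransferases and demethylases had 22 of 51 lower and 3 higher (22 and 7 under quantile normalisation), with Kmt2a (-1.67 ± 0.10) and Kdm5b (-1.57 ± 0.12), which set and remove methylation on histone H3, lower. Polycomb and DNA methylation genes were divided, with 10 of 40 lower and 8 higher, and 9 of each when arrays were centred on the median or on ribosomal protein genes. Tet1 (-2.13 ± 0.22), Dnmt1 (-1.41 ± 0.15) and Ezh2 (-0.96 ± 0.08) fell, and Dnmt3b rose by 0.54 ± 0.09. The 8 rises became 5 without E15.5 array 2 or 3. Deacetylases and sirtuins had 5 of 18 higher (27.8%) and 4 lower (22.2%). Among them the mitochondrial sirtuin genes Sirt3 (1.74 ± 0.16) and Sirt5 (0.98 ± 0.11) rose and Hdac9 fell by 2.20 ± 0.11. Splicing genes of the SR and snRNP groups had 11 of 32 lower (34.4%) and 1 higher, all by less than 2-fold. These genes were bright, with a mean of 10.38 to 10.52 on the E15.5 arrays. Among the 4985 genes of highest signal 26.6% were called lower. Sf3b1 (-0.76 ± 0.09), Sf3b3 (-0.83 ± 0.07) and Srsf11 (-0.91 ± 0.08) were among the 11.

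Small nucleolar RNAs stood at the far end of the lower lists. These short RNAs guide chemical modification of ribosomal and spliceosomal RNA, and in mammals most are cut from introns of host genes. Of 54 measured genes, 3 of them for the related Cajal body RNAs, 44 were called lower, 36 by at least 2-fold, and 1 higher, against 17.7% lower in all genes. The median signal of the 54 was 7.16, 7.15 and 7.09 on the E15.5 arrays and 5.56, 5.86 and 5.87 on the P5 arrays, and the median difference was -1.48. For 43 of them every P5 array was below every E15.5 array. Snora41 had 7.45, 7.15 and 7.23 at E15.5 and 5.04, 5.17 and 5.08 at P5 (-2.18 ± 0.08, limma adjusted p = 3.72e-07), and Snord35a had 6.67, 6.40 and 6.31 at E15.5 and 4.62, 4.54 and 4.47 at P5 (-1.92 ± 0.10). Snora20 was the exception, with 5.40, 5.26 and 6.46 at E15.5 and 8.34, 8.17 and 8.10 at P5 (2.50 ± 0.29). The 9 not called had differences of -0.36 to -0.06.

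Host genes had smaller differences than the RNAs inside them in 3 pairs chosen after their values were seen. Snord47 lies in the noncoding gene Gas5. Snord47 had 9.50, 9.67 and 9.69 at E15.5 and 5.25, 5.97 and 6.24 at P5 (-3.80 ± 0.26), whereas Gas5 had 13.03, 13.08 and 13.10 at E15.5 and 12.93, 13.07 and 13.01 at P5, a difference of -0.07 ± 0.07 with a 95% interval of -0.24 to 0.09. Snora41 lies in Eef1b2, a translation elongation factor gene at -0.06 ± 0.08 (-0.24 to 0.13), and Snora33 (-2.64 ± 0.20) in the ribosomal protein gene Rps12 at -0.01 ± 0.06 (-0.16 to 0.14). The small RNAs were more than 4-fold lower. The hosts lay at percentile 99.4 or above of all genes at both stages, and whether their probe sets still responded to changes at such signals was not tested. Whether the probes read the mature small RNA or the intron of an unspliced host transcript was not tested. Whether recovery of short RNAs differed between stages was not tested. Protein-coding genes of ribosome biogenesis had 14 of 56 lower and 8 higher. The mean of this list was 8.85 to 8.98 on the E15.5 arrays. Its share lower was no larger than the 26.6% of the 4985 genes of highest signal. Its share higher was below that of all genes. Among the decreases Polr1a, of RNA polymerase I, was at -0.70 ± 0.05 and Utp20 at -1.25 ± 0.11. The 8 called higher became 3 or 4 without E15.5 array 3, P5 array 1, P5 array 3 or P10 array 2.

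Genes of the X chromosome were called lower more often than those of any autosome, a comparison made after the values were seen and limited to genes above the median signal. Of 292 such X-linked genes 115 (39.4%) were called lower and 64 (21.9%) higher, against 26.7% and 29.8% of 9660 autosomal genes and 22.2% to 31.2% lower on single autosomes. At least 2-fold decreases made up 24.7% on the X and 6.75% to 15.0% on autosomes, and at least 4-fold decreases 9.25% and 1.27% to 4.46%. Of all 43 genes lower by at least 8-fold 13 were X-linked, and of the 193 higher by as much 3 were. Smarca1, Lpar4, Arxes2, Rtl3, Fndc3c1, Dgkk, Aff2 and Dock11, given above, are among the 13. Xist, given below, is another of them. Others past 4-fold, named after their values were seen, were Capn6, a calpain relative (-2.91 ± 0.13), Praf2 (-2.88 ± 0.30), Itm2a (-2.74 ± 0.24), Atp7a, a copper pump (-2.30 ± 0.13), Clcn5 (-2.32 ± 0.07), Flna, the filamin of stress fibres (-2.17 ± 0.11), and Ogt (-2.01 ± 0.27).

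Signals of sex-linked genes were uneven between the arrays and between the stages. Eif2s3y, a Y-linked gene, had 4.05, 3.96 and 7.94 at E15.5 and 4.14, 8.98 and 9.24 at P5, and Xist, the RNA that silences 1 X chromosome in female cells, had 10.51, 10.64 and 10.16 at E15.5 and 8.74, 6.16 and 5.04 at P5. With the Eif2s3y signal as a covariate 37.3% of X-linked genes above the median signal were called lower, against 25.1% of autosomal ones. Leaving out any 1 array gave 35.3% to 41.4%. Under the covariate the difference of Smarca1 went from -4.29 to -4.20, that of Lpar4 from -3.74 to -3.66, that of Dock11 from -3.03 to -3.12 and that of Xist from -3.79 to -2.76. The Eif2s3y and Xist signals changed in part with the stage. The parts of sex and of stage in the X-linked decreases therefore cannot be told fully apart.

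**Figure D5:**
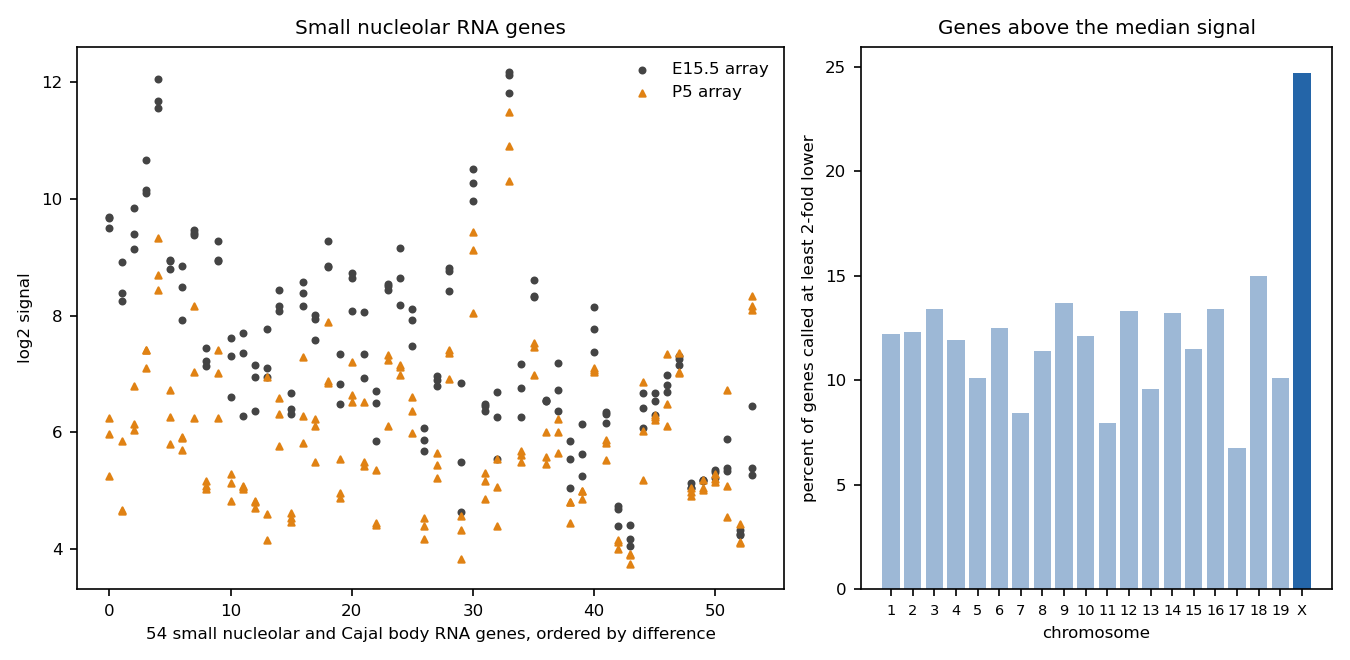
Left, log2 signal on each E15.5 array (dark circles) and P5 array (orange triangles) for 54 small nucleolar and Cajal body RNA genes, ordered by the difference between the stages; most P5 values lie below the E15.5 values. Right, percent of genes above the median signal called at least 2-fold lower at P5 on each chromosome (vertical axis from 0), 24.7% on the X and at most 15.0% on an autosome.

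Genes often used as references were not all steady. Actb had 13.13, 13.19 and 13.11 at E15.5 and 12.98, 13.20 and 13.04 at P5 (-0.07 ± 0.07, 95% interval -0.23 to 0.10), and Tbp (-0.24 ± 0.11), B2m (0.15 ± 0.09) and Ppia (12.93, 12.93 and 12.89 at E15.5 and 12.91, 12.93 and 12.89 at P5) were not called, although Ppia was called higher on its dimmest probe set. Hprt had 9.73, 9.54 and 9.49 at E15.5 and 10.99, 11.20 and 10.99 at P5 and rose by 1.47 ± 0.09 (limma adjusted p = 5.98e-06). Gusb (-1.28 ± 0.10), Tfrc (-1.50 ± 0.30) and Polr2a, the largest subunit of RNA polymerase II (-0.95 ± 0.13), fell. Sdha (0.61 ± 0.12) and Pgk1 (0.35 ± 0.06) rose by less than 2-fold. Ywhaz was called lower (-0.27 ± 0.07), a call lost without any 1 of 4 arrays (-0.25 to -0.24), on its dimmest probe set, with the Eif2s3y covariate and when centred on ribosomal protein genes.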

How the data were processed

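RNA of sorted liver stroma was measured on 9 Affymetrix arrays, 3 each at E15.5, P5 and P10. Per the labels' protocols, Trizol served to extract total RNA, from which biotin-labelled cRNA was made. The files hold log2 values deposited after robust multi-array averaging (RMA). The submitters' processing notes list Affymetrix Expression Console beside Transcriptome Analysis Console 2.0. Values are relative within an array, so a change in total RNA per cell cannot be seen. No genome build is given in these sources. The number of arrays limits the precision.

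Of 35556 probe sets, 21789 had 1 gene symbol, 1621 several and 12146 were not listed in the platform annotation. For each of 19938 genes the brightest probe set, on average across the 9 arrays, was kept (999 genes had several, and 8 of these had opposite calls). A model of stage alone was fitted with limma 3.58.1 in R 4.3.3 to the 9 arrays together (6 residual and 2.22 prior degrees of freedom), with no filter or further scaling, and the contrast P5 minus E15.5 was given Benjamini-Hochberg adjusted p-values across all of them. The code was tested on simulated data. Errors of differences are model standard errors. Python 3.11.15 and matplotlib 3.10.9 drew the figures.

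The members, gene lists and families were chosen with earlier results of these data known, so lists are described by their counts and medians, with no set test. Genes were named by a rule. It took the 12 largest rises and 12 largest decreases among called genes, outside predicted genes and a list set aside as known markers. Their stages had to be apart and the higher mean above the median of all genes. It also took up to 3 called members in the main direction of a described list and 2 in the other, by smallest adjusted p. Genes in the top 5% of signal at either stage, genes switched on or off and common reference genes were included. So were runs of 5 or more neighbouring genes called in 1 direction. Gene order, promoter windows and miRNA sequences are from RefSeq, build GRCm38.p6. Replicate numbers did not pair the arrays (Pearson r of residuals across genes -0.0795 to 0.0687).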

Additional observations from a re-analysis of the deposited data

Results flagged for a closer look

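Probe sets outside the gene comparison also carried signal. Of those with no listed gene or with several genes, 1062 were called higher at P5 by the same limma test. Among the 12146 without a listed gene 874 were higher and 2179 lower (25.1% called), and among the 1621 with several symbols 188 were higher and 197 lower. Decreases thus outnumbered rises in the unlisted probe sets, unlike in the named genes, and the difference between these shares was not tested. Their differences ran from -4.92 to 5.98.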

How the results depend on the processing

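Counts of calls were recomputed under 20 other settings. Quantile normalisation of the deposited values moved the count of genes higher at P5 from 3560 to 6132 and the median difference of all genes from 0.03 to 0.12. In the other 19 settings every count stayed within 1.5 times its main value. Leaving out 1 array gave 3007 to 3689 genes higher, 2968 to 3485 lower, 1369 to 1511 higher by at least 2-fold and 1278 to 1448 lower by at least 2-fold. With the replicate number as a block, which the check of pairing did not call for, 3452 genes were higher and 3434 lower. With only the E15.5 and P5 arrays 3211 and 3220 were called, and with a floor at percentile 30 of signal 3072 and 2960. Of 379 called genes that the naming rule selects, 328 kept their call and direction in every setting in which they were fitted, and 28 lost it under the floor, the most of any setting. Ppia, not called on its brightest probe set, was 0.17 on the probe set with the lowest mean and called higher there (limma adjusted p = 0.0398). Some small list counts in the direction with fewer calls moved on leaving out 1 array, as in splicing (1 higher, 4 without P5 array 3), glycosaminoglycans (2, 1 without E15.5 array 1 or P5 array 1) and histone methylation (3, 5 without P10 array 1). Dim genes, above all olfactory receptors and microRNA genes, had few calls, and their small differences are the least certain.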

Other observations

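In some regions neighbouring genes were called in 1 direction. With 19856 genes placed in RefSeq order, the longest runs of adjacent measured genes called in 1 direction held 7 genes. Runs of at least 5 numbered 18 higher, with 100 genes, and 10 lower, with 54 genes. With 17.9% of all genes called higher and 17.7% lower, some runs can arise without any link between neighbours. How many would do so was not tested. Members of such runs are often related or overlapping genes, which can share probes. A run on chromosome 19 held Cyp2c67, Cyp2c68, Cyp2c37, Cyp2c54, Cyp2c50, Cyp2c70 and Pdlim1, all higher by 0.98 to 5.05. On chromosome 9 Apoa1, Apoc3, Apoa4 and Apoa5, apolipoprotein genes, and Zpr1 rose by 0.33 to 4.56. On chromosome 16 Ahsg, Fetub, Hrg, Kng2 and Kng1, plasma proteins of the cystatin superfamily, rose by 0.52 to 6.44. On chromosome 14 Dcaf11, Fitm1, Psme1, Emc9 and Psme2 rose by 0.98 to 2.23. A run of 7 on chromosome 17, from Meiob to Mrps34, included Hagh, which encodes glyoxalase II (3.39 ± 0.06). Its first gene, Meiob, had 3.85, 3.92 and 3.89 at E15.5 and 5.47, 9.21 and 6.69 at P5 (3.24 ± 0.77), so the second P5 array was far above the others.

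Runs of decreases included imprinted regions. On chromosome 6 Col1a2, Casd1, Sgce, Peg10 and Ppp1r9a had differences of -2.36 to -0.95, and Peg10 had 12.34, 12.39 and 12.09 at E15.5 and 10.73, 10.47 and 10.78 at P5. On chromosome 12 the noncoding gene Rian had 9.91, 10.35 and 10.73 at E15.5 and 6.77, 5.91 and 7.87 at P5 (-3.48 ± 0.43), and its neighbours Mir127 (-0.37 ± 0.07), Mir136 (-0.60 ± 0.14) and Mir341 (-0.86 ± 0.17) were called lower. Mir434 (-0.30 ± 0.10) in the same run lost its call without any 1 of 8 arrays (-0.33 to -0.19). On the X chromosome the related genes Armcx4, Armcx1, Armcx6, Armcx3 and Armcx2 were all called lower (-1.6 to -0.64), and Armcx3 (-1.08 ± 0.29) lost its call without E15.5 array 1 (-1.04), E15.5 array 3 (-0.99) or P5 array 2 (-0.87), with the Eif2s3y covariate (-0.97) and on its dimmest probe set (-0.91). On chromosome 2 Zeb2 and its antisense gene Zeb2os (-2.41 ± 0.29), whose signals the array may not separate, fell with Acvr2a, an activin receptor (-1.87 ± 0.12).

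MicroRNA genes were mostly dim. Of 300 measured 25 were called lower and 4 higher, but 19 lower and 31 higher under quantile normalisation, and leaving out 1 array moved the 4 to 2 (E15.5 array 3) or 11 (P5 array 3). Mir677 (-1.49 ± 0.17) was lower and Mir375, known from endocrine and epithelial cells, was higher (0.86 ± 0.13). For these genes and the 4 beside Rian 1 mature arm each is given with the seed, bases 2 to 8, in capitals, from RefSeq build GRCm38.p6. For Mir375 the sequences at hand held only the 5p arm, so its 3p arm and seed are not shown. The array value belongs to the gene and does not tell its arms apart. Which arm is used in cells was not tested.

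miR-677-5p: uUCAGUGAugauuagcuucuga
miR-375-5p: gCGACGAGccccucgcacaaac
miR-127-3p: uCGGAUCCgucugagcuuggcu
miR-434-3p: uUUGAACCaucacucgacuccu
miR-136-5p: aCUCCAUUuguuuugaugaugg
miR-341-3p: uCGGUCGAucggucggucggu

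Each of these has a seed of its own.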
